A study of Mus musculus with 12 samples.

Results

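The 56 genes described here are Myc and 55 factors that build ribosomes, taken by name from the 24502 genes of the table of mouse regulatory T cells (Treg cells). They were grouped by role into Myc itself, 4 abundant nucleolar proteins, 5 genes of RNA polymerase I, 4 proteins of the box C/D and 4 of the box H/ACA small nucleolar ribonucleoproteins (snoRNPs), 15 of the small-subunit processome, 8 of 40S maturation and 15 of 60S assembly. RNA was measured in Treg cells of Foxp3CreGpx4fl/fl mice, in which Cre expressed from Foxp3 deletes a loxP-flanked Gpx4, and of mice labelled only WT. Cells of each genotype were left unstimulated or were kept for 4 h on plates coated with α-CD3-CD28 at a concentration of 5 μg/ml. The 4 groups were stimulated Gpx4-deficient, stimulated wild-type, unstimulated Gpx4-deficient and unstimulated wild-type cells, with 3 libraries each and all from mice of 11 weeks. The labels do not say whether the wild-type mice carry Cre, whether the libraries of a group came from separate mice, or whether the unstimulated cells were kept in culture, so a p-value measures the spread between libraries, and stimulation cannot be told apart from time in culture.

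A ribosome is assembled mainly in the nucleolus, where RNA polymerase I transcribes a long precursor of the ribosomal RNAs (rRNAs). SnoRNPs modify that precursor, the processome folds and cuts the part that becomes the small subunit, and further factors finish the small (40S) and large (60S) subunits. Myc is a transcription factor that drives many of these genes in dividing cells, and a lymphocyte that receives a signal through its antigen receptor is known to switch on Myc and to enlarge its nucleolus before it divides.

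Library totals ran from 24629230 to 31879267 counts, and levels are given as CPM, the count scaled to library size and TMM factor. Gpx4, the deleted gene, had 3.336 to 9.202 CPM in stimulated Gpx4-deficient libraries and 69.18 to 107.4 CPM in stimulated wild-type libraries, and 4.962 to 12.33 CPM against 141.8 to 171.9 CPM without stimulation. The stimulated Gpx4-deficient libraries stood apart from one another, with correlations of log2 CPM between replicates of 0.847 to 0.881, against 0.947 to 0.96 in stimulated wild-type cells. Replicate 3 of the stimulated and replicate 1 of the unstimulated Gpx4-deficient libraries correlated least with the others of their group. Mitochondrially encoded genes took 2.841% to 3.72% of counts in the stimulated Gpx4-deficient libraries and 1.183% to 1.373% in the stimulated wild-type libraries. Treg and T cell markers were detected in every group, and their 6 genes summed to 5450 to 6260 CPM in stimulated Gpx4-deficient cells and 4510 to 4940 CPM in stimulated wild-type cells. Foxp3 itself had 47.82 to 75.8 CPM and 33.65 to 43.45 CPM in these groups. The 4 conventional CD4 T cell markers were also detected in every group, and summed to 314 to 542 CPM and 298 to 369 CPM in the same order. By sign, 3 of these 4 were higher and 1 lower in stimulated Gpx4-deficient cells. Their part in the member values was not tested. The library numbers in the labels run in separate blocks for the 2 genotypes, and within each genotype for unstimulated and stimulated cells. Neither genotype nor stimulation can therefore be told apart from any effect of preparation order.

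Stimulation raised most of the 56 genes in both genotypes. In Gpx4-deficient cells 42 rose and 0 fell, and in wild-type cells 45 rose and 0 fell, at a Benjamini-Hochberg adjusted p under 0.05 in edgeR's quasi-likelihood test. Of all 14827 genes tested, 7.45% rose and 7.83% fell in Gpx4-deficient cells, and 6.12% rose and 5.41% fell in wild-type cells. Among the 5969 genes with a mean level at least as high as that of the lowest member (32.45 CPM), a comparison added after the values were seen, 16.2% rose in Gpx4-deficient cells and 14% in wild-type cells. Every stimulated library lay above every unstimulated one for 42 members in Gpx4-deficient and 53 in wild-type cells, against 12.9% and 19.9% of all genes. The median change of the members was 1.07 on the log2 scale (2.1-fold) in Gpx4-deficient cells and 1.40 (2.64-fold) in wild-type cells, while the median of all genes was -0.02 and -0.03. Summed over the 56 genes, CPM came to 1.276% to 1.354% of the TMM-scaled library size in stimulated Gpx4-deficient libraries. In stimulated wild-type libraries the sum came to 1.618% to 1.693%. Without stimulation it came to 0.5986% to 0.62% in Gpx4-deficient libraries and 0.6304% to 0.6485% in wild-type libraries. The summed shares therefore fell into separate ranges in all 4 groups, with stimulated wild-type cells highest. Other measures moved with stimulation too. The 5 monocyte and macrophage markers summed to 56.2 to 78.7 CPM in stimulated and 115 to 156 CPM in unstimulated Gpx4-deficient cells, with 0 called, and to 22 to 59.2 CPM in stimulated and 137 to 249 CPM in unstimulated wild-type cells, with 2 called lower. By sign, 3 of these 5 markers were higher and 2 lower with stimulation in Gpx4-deficient cells, and all 5 were lower in wild-type cells. The 4 plasma cell markers, of which 1 was called higher in each genotype, summed to 492 to 548 CPM against 202 to 283 CPM in Gpx4-deficient cells and to 362 to 411 CPM against 219 to 254 CPM in wild-type cells. By sign, all 4 were higher in Gpx4-deficient cells, but 1 was higher and 3 lower in wild-type cells (median log2 change -0.98). The sums therefore do not describe each marker. None of these markers was at 0 throughout a group. The mitochondrial share was 2.841% to 3.72% in stimulated and 1.716% to 1.941% in unstimulated Gpx4-deficient cells, and 1.183% to 1.373% against 1.214% to 1.385% in wild-type cells. The part of these measures in the stimulation response was not tested. In RNA from a bulk sample, a change in the share of responding cells and a change in RNA per cell cannot be told apart.

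**Figure D1:**
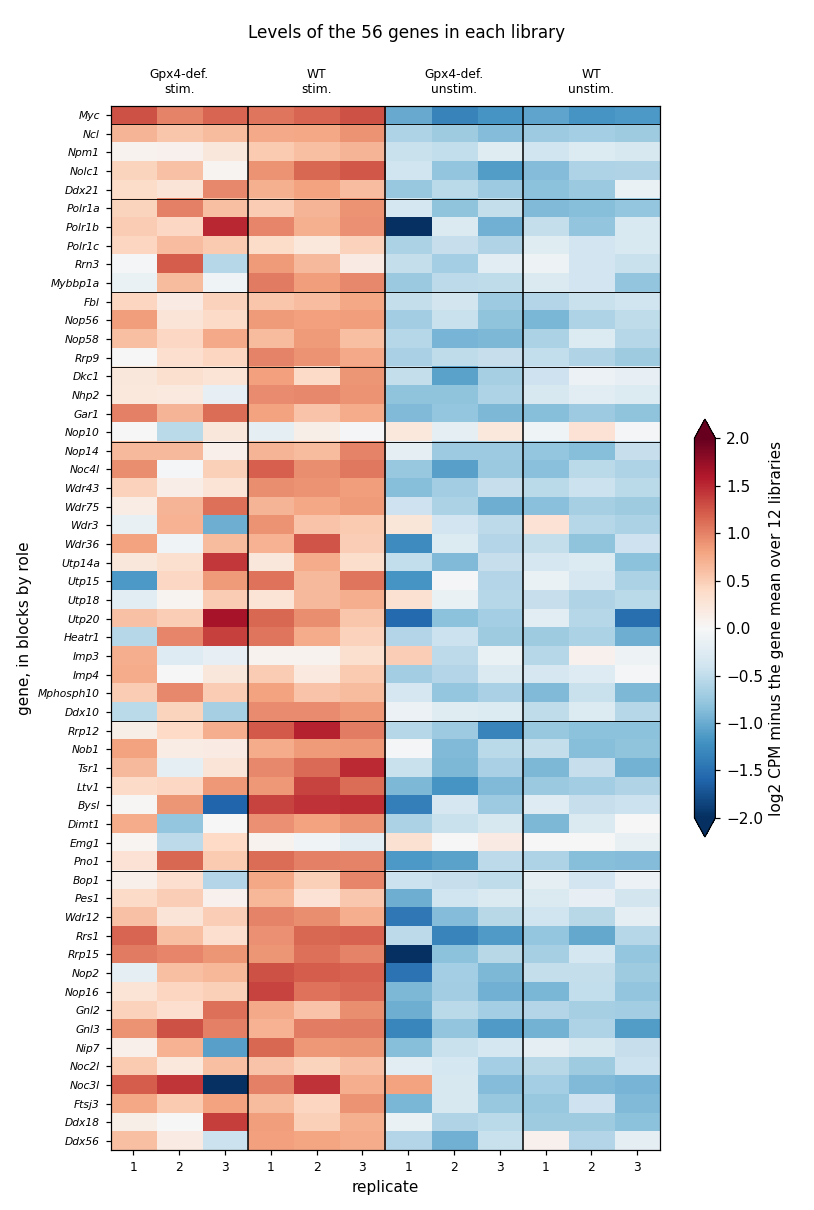
Level of each of the 56 genes (rows, by role) in each of the 12 libraries (columns, by group), as log2 CPM minus the mean of the gene over all libraries. Values run from -2.95 to 1.65 and the colours end at 2 on either side. The 6 stimulated libraries are above the gene mean in most rows, and Emg1 and Nop10 show no such step.

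The calls of the 2 genotypes overlapped in 39 genes, which is 92.9% of the 42 genes called in Gpx4-deficient cells and 86.7% of the 45 called in wild-type cells. Polr1b, Utp14a and Imp4 were called in Gpx4-deficient cells alone, and Utp18, Ddx10, Bysl, Bop1, Nip7 and Ddx56 in wild-type cells alone. The difference in response was not past the threshold for any of these 9 genes, so they are not shown to differ between genotypes. In neither genotype were 8 genes called, namely Rrn3, Nop10, Wdr3, Utp15, Imp3, Dimt1, Emg1 and Noc3l.

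Myc was the member that rose most in both genotypes. It lies on chromosome 15 from 61985391 to 61990374 on the plus strand (GRCm38, as all positions here). Stimulated Gpx4-deficient libraries had 1330, 1095 and 1231 CPM and stimulated wild-type libraries 1160, 1239 and 1337 CPM. Without stimulation Gpx4-deficient libraries had 273.9, 217.4 and 242.2 CPM and wild-type libraries 264.3, 243.3 and 248.3 CPM. Every stimulated library lay above every unstimulated one, and the genotypes overlapped in both states. Myc rose 4.99-fold in Gpx4-deficient cells (log2 2.32, SE 0.11, edgeR adjusted p = 1.41e-07) and 4.94-fold in wild-type cells (log2 2.31, SE 0.11, adjusted p = 1.22e-07). The difference between these responses was 0.01 (SE 0.15, 95% confidence interval -0.32 to 0.35). Between genotypes Myc differed by -0.03 in stimulated cells (95% confidence interval -0.27 to 0.21), an interval that leaves room for a modest change either way.

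**Figure D2:**
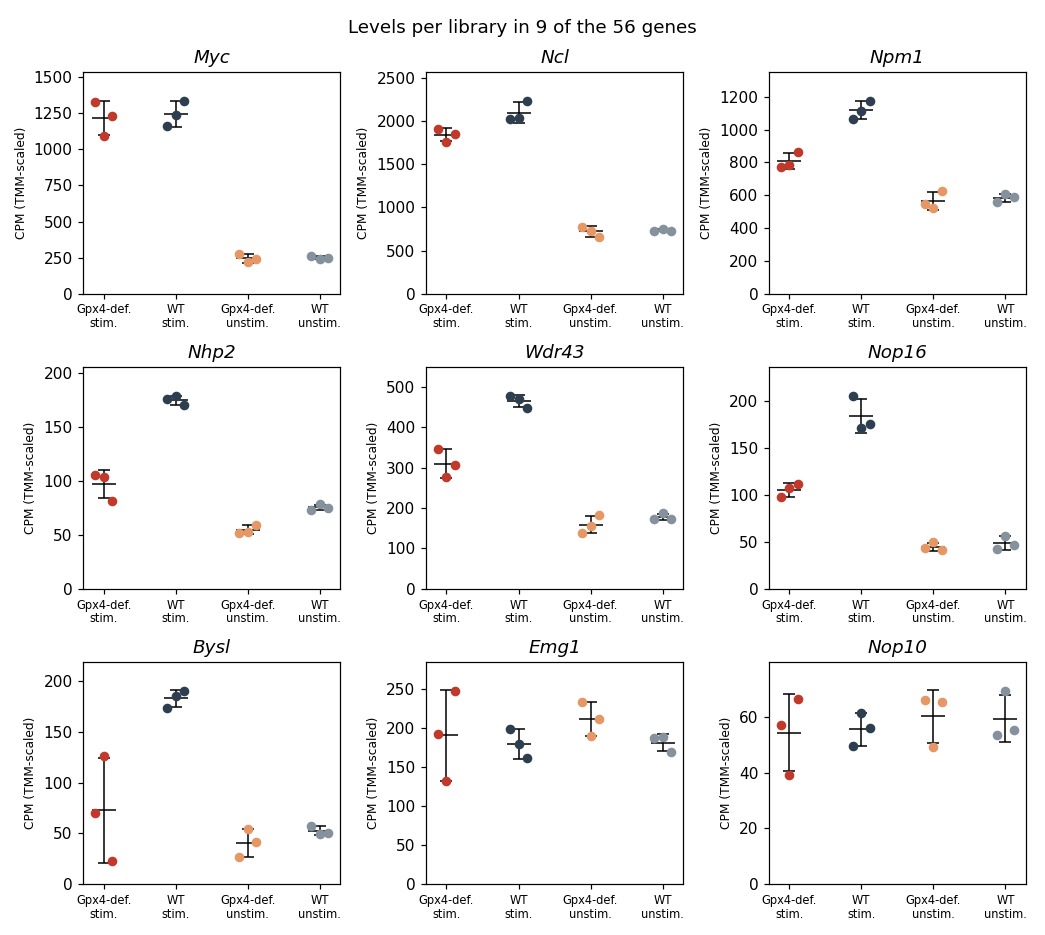
CPM of 9 genes in each library (points) with the group mean (line) and SD (bar, n = 3), for stimulated Gpx4-deficient, stimulated wild-type, unstimulated Gpx4-deficient and unstimulated wild-type cells. Myc overlaps between both stimulated groups, and Ncl, Npm1, Nhp2, Wdr43, Nop16 and Bysl sit lower in the stimulated Gpx4-deficient than in the stimulated wild-type group. For Emg1 and Nop10 the stimulated and unstimulated libraries overlap.

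Myc binds DNA with its partner Max at the E-box CACGTG, so the promoters of the members were searched for these 6 letters. The motif is its own reverse complement, so a single search covers both strands. RefSeq promoter windows (GRCm38.p6, 250 bases before to 50 after each start) were matched for 48 of the 56 genes. Of these 48 genes 11 (22.9%) held the motif, against 2187 of 27025 genes (8.09%) in the whole RefSeq promoter set. That set is not limited to genes of the count table or genes expressed in these cells, and no share over such genes was computed. By role, the motif was found in 2 of 5 RNA polymerase I genes, 4 of 14 processome genes, 3 of 7 genes of 40S maturation and 2 of 12 of 60S assembly, and in 0 of the 3 nucleolar, 3 box C/D and 4 box H/ACA genes with a window. Of the members called below between genotypes in stimulated cells, Wdr43 held the motif, Nhp2 and Nop16 had windows without it, and Npm1 had no window. The sites of 6 of the 11 genes, chosen after the values were seen, are shown. These 6 had an unadjusted edgeR p under 0.05 for genotype in stimulated cells or for the difference in response, which the other genes with the motif did not. Sites picked in this way cannot show whether the motif goes with such a difference. Each site is read 5′ to 3′ on the strand of its gene, with the motif in capitals.
Wdr43: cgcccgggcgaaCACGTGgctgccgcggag
Mybbp1a: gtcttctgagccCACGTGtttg
Tsr1: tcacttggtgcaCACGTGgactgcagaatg
Ltv1: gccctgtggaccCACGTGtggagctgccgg
Nop2: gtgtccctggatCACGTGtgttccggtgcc
Utp18: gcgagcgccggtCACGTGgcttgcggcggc
The Wdr43 stretch is chr17:71616220-71616249 on the plus strand, that of Mybbp1a chr11:72441355-72441376 on the plus strand, and that of Tsr1 chr11:74898092-74898121 on the plus strand. The Nop2 stretch is chr6:125131811-125131840 on the plus strand, that of Ltv1 chr10:13193092-13193121 on the minus strand, and that of Utp18 chr11:93885769-93885798 on the minus strand. Rrn3 held the motif at 2 places, and Utp20, Imp4, Pno1 and Pes1 at 1 place each. Genes with the motif had a median response to stimulation of 0.93 in Gpx4-deficient and 1.43 in wild-type cells (log2, n = 11), and genes without it 1.09 and 1.38 (n = 37). A match of letters describes the window and does not show that Myc binds there.

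The 4 abundant nucleolar proteins all rose in both genotypes. Ncl encodes nucleolin, an RNA-binding protein that helps rRNA transcription and folding. It had 1914, 1765 and 1855 CPM in stimulated Gpx4-deficient and 2030, 2037 and 2237 CPM in stimulated wild-type libraries, against 722.6 ± 59.7 CPM and 734.8 ± 12.4 CPM without stimulation (SD, n = 3 each). Every stimulated Ncl value lay above every unstimulated one, and the stimulated Gpx4-deficient libraries all lay below the stimulated wild-type ones. The response of Ncl was 1.35 in Gpx4-deficient cells (SE 0.08, edgeR adjusted p = 5.14e-07) and 1.52 in wild-type cells (SE 0.08, adjusted p = 2.41e-07) on the log2 scale. Nolc1, a chaperone of snoRNPs, rose by 1.12 and 1.79, and Ddx21, a helicase that links rRNA transcription with processing, by 1.24 and 1.25, in Gpx4-deficient and wild-type cells in that order. Npm1, which encodes the chaperone nucleophosmin, rose by 0.52 (SE 0.09, edgeR adjusted p = 0.0026) in Gpx4-deficient cells and by 0.93 (SE 0.09, adjusted p = 3.29e-05) in wild-type cells.

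Of the 5 RNA polymerase I genes, 4 rose in Gpx4-deficient and 3 in wild-type cells. Polr1a, the largest subunit, rose by 1.24 in Gpx4-deficient cells (SE 0.19, edgeR adjusted p = 0.00095) and by 1.54 in wild-type cells (SE 0.19, adjusted p = 0.000203). Polr1c, a subunit shared with RNA polymerase III, rose by 1.09 and 0.65, and the nucleolar protein Mybbp1a by 0.77 and 1.42. Rrn3, the initiation factor that recruits the polymerase, had 79.13, 186.9 and 54.54 CPM in stimulated Gpx4-deficient cells and 146.4, 126.6 and 90.8 CPM in stimulated wild-type cells, against 59.5 ± 9.91 and 65.64 ± 8.73 CPM without stimulation. Its stimulated Gpx4-deficient libraries ran from within the unstimulated values to far above them, and it passed the threshold in neither genotype.

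All 4 box C/D proteins rose in both genotypes. Fbl is the methyltransferase of the particles that methylate the rRNA precursor, and Nop56 and Nop58 are their core proteins. Rrp9 belongs to the snoRNP that starts small-subunit processing. Nop56 had 1149, 767.4 and 835.6 CPM in stimulated Gpx4-deficient and 1158, 1132 and 1150 CPM in stimulated wild-type libraries, against 410.4 ± 52.8 and 404.4 ± 58.7 CPM without stimulation. It rose by 1.16 in Gpx4-deficient cells and by 1.5 in wild-type cells, and Nop58 rose by 1.39 and 1.18. Rrp9 rose by 0.81 (SE 0.15, edgeR adjusted p = 0.00365) in Gpx4-deficient cells and by 1.49 (SE 0.16, adjusted p = 4.5e-05) in wild-type cells.

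Of the box H/ACA proteins, which turn uridine into pseudouridine in rRNA and are also part of telomerase, Dkc1, Nhp2 and Gar1 rose in both genotypes and Nop10 in neither. Gar1 rose most of them, by 1.79 in Gpx4-deficient cells (SE 0.24, edgeR adjusted p = 0.000297) and by 1.5 in wild-type cells (SE 0.23, adjusted p = 0.000955). It had 67.69, 53.91 and 73.38 CPM in stimulated Gpx4-deficient cells and 59.05, 50.11 and 56.45 CPM in stimulated wild-type cells, against 18.74 ± 0.83 and 19.45 ± 0.858 CPM without stimulation. Nop10 had 57.32, 39.24 and 66.41 CPM in stimulated Gpx4-deficient and 49.42, 61.3 and 55.89 CPM in stimulated wild-type libraries, against 60.23 ± 9.41 and 59.46 ± 8.59 CPM without stimulation. The 4 groups overlapped for Nop10, and its responses were -0.15 (SE 0.24) and -0.10 (SE 0.24), although it shares the particle with the other three.

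Of the 15 processome genes, 10 rose in Gpx4-deficient and 10 in wild-type cells, with median responses of 1.01 and 1.39. Wdr43, which belongs to the subcomplex that binds the nascent precursor, rose by 0.96 in Gpx4-deficient cells (SE 0.13, edgeR adjusted p = 0.000326) and by 1.39 in wild-type cells (SE 0.13, adjusted p = 1.78e-05). Noc4l, which pairs with Nop14, rose by 1.37 and 1.72, and the scaffold protein Mphosph10 by 1.25 and 1.39. Imp3, a partner of Mphosph10, had responses of 0.16 (SE 0.34) and 0.33 (SE 0.34) and was called in neither genotype. The helicase Ddx10 had 45.38, 89.55 and 41.43 CPM in stimulated Gpx4-deficient cells and 127, 127.4 and 120.5 CPM in stimulated wild-type cells. Without stimulation it had 60.68, 55.44 and 54.25 CPM in Gpx4-deficient cells and 46.1, 54.49 and 44.57 CPM in wild-type cells. The stimulated wild-type libraries stood above all others for Ddx10, and of the stimulated Gpx4-deficient ones replicate 2 alone lay above the unstimulated range. Its response was 0.05 (SE 0.27, edgeR adjusted p = 0.934) in Gpx4-deficient cells and 1.37 (SE 0.27, adjusted p = 0.00546) in wild-type cells.

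Of the 8 genes of 40S maturation, 5 rose in Gpx4-deficient and 6 in wild-type cells, with median responses of 0.89 and 1.80. Rrp12, an export factor of pre-ribosomes, rose by 1.27 in Gpx4-deficient cells (SE 0.23, edgeR adjusted p = 0.00292) and by 2.09 in wild-type cells (SE 0.24, adjusted p = 9.58e-05). Tsr1, a GTPase-like factor of late pre-40S particles, rose by 0.93 and 1.97. Ltv1, a late assembly factor, rose by 1.55 and 1.81, and Pno1, a partner of the nuclease Nob1, by 1.59 and 1.82. Emg1, a methyltransferase of small-subunit rRNA, had 193, 131.7 and 247.7 CPM in stimulated Gpx4-deficient and 198.7, 179.7 and 161.4 CPM in stimulated wild-type libraries, against 211.9 ± 22 and 181.6 ± 10.5 CPM without stimulation. Stimulated and unstimulated libraries overlapped in each genotype, and its responses were -0.15 (SE 0.20) and -0.01 (SE 0.20).

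Of the 15 genes of 60S assembly, 11 rose in Gpx4-deficient and 14 in wild-type cells, with median responses of 1.24 and 1.41. Gnl3, which encodes the GTPase nucleostemin, had 213.3, 276.5 and 230.2 CPM in stimulated Gpx4-deficient and 185.5, 233.7 and 235.9 CPM in stimulated wild-type libraries, against 55.11 ± 10.2 and 62.55 ± 11.1 CPM without stimulation. Its response was 2.12 (SE 0.20, edgeR adjusted p = 2.09e-05) in Gpx4-deficient cells and 1.80 (SE 0.20, adjusted p = 7.13e-05) in wild-type cells. Ftsj3, an rRNA methyltransferase, rose by 1.35 and 1.34, and the GTPase Gnl2 by 1.39 and 1.41. Of the trimer of Pes1, Bop1 and Wdr12, Pes1 rose by 0.85 and 0.78 and Wdr12 by 1.35 and 1.26, while Bop1 rose by 0.97 in wild-type cells and had a response of 0.47 (SE 0.21, edgeR adjusted p = 0.164) in Gpx4-deficient cells. Noc3l had 57.79, 67.45 and 3.239 CPM in stimulated Gpx4-deficient cells, a 20.8-fold spread within the group, and 50.11, 68.37 and 41.3 CPM in stimulated wild-type cells.

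**Figure D3:**
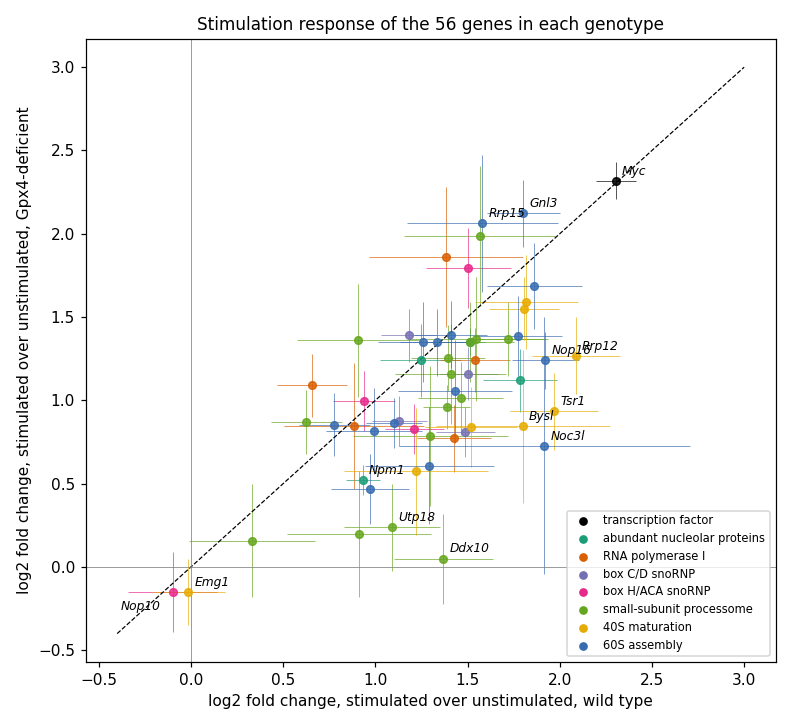
Response of each of the 56 genes to stimulation, as log2 fold change ± SE of stimulated over unstimulated cells, in wild-type cells (x axis) and Gpx4-deficient cells (y axis). The dashed line marks equal responses, and 42 genes lie below it and 14 above it.

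In stimulated cells, 45 of the 56 genes were lower in the Gpx4-deficient libraries than in wild type by sign, and 4 of them fell past the threshold, namely Nhp2, Npm1, Nop16 and Wdr43, and 0 rose. Of the members 7.14% fell, against 1.25% of all genes tested, of which 1.03% rose, and against 1.68% of the genes at least as high as the lowest member, of which 2.35% rose. The median difference of the members was -0.32 on the log2 scale, that is 0.802 of the wild-type level, and that of all genes was 0. For 21 members (37.5%) every stimulated Gpx4-deficient library lay below every stimulated wild-type library, and for 0 members above, against 11.9% of all genes below and 8.26% above (14.3% and 11.2% of the genes at least as high). The members' median CPM was 132.8 to 156.8 in stimulated Gpx4-deficient and 190.5 to 195.2 in stimulated wild-type libraries, which do not overlap. The count of 4 depended on the libraries: without replicate 1, 2 or 3 of stimulated wild type, or in a fit of these 2 groups alone, it was 0, and without replicate 2 of stimulated Gpx4-deficient cells it was 6. DESeq2 called 13 members and limma-voom 12, all lower, and both counts include the 4.

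Nhp2, the box H/ACA protein that binds the guide RNA, had 105.2, 103.9 and 81.7 CPM in stimulated Gpx4-deficient libraries and 175.3, 178.5 and 170.4 CPM in stimulated wild-type libraries (chromosome 11, 51619735 to 51623714, plus strand). The ranges were far apart, and the gene fell by 0.85 on the log2 scale (SE 0.15, edgeR adjusted p = 0.0159). In unstimulated cells Nhp2 had 52.07, 52.33 and 59.5 CPM in Gpx4-deficient and 73.25, 78.17 and 75.17 CPM in wild-type libraries, again without overlap, with a difference of -0.47 (SE 0.15, edgeR adjusted p = 0.631). Its difference in stimulated cells passed the threshold in 3 of the 6 fits that left out a library, in which it ran from -0.87 to -0.74. Nhp2 overlaps Rmnd5b on the opposite strand, and the strand setting of the counting is not given in the sources used here.

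Npm1 had 771.3, 786.3 and 864.5 CPM in stimulated Gpx4-deficient libraries and 1064, 1113 and 1175 CPM in stimulated wild-type libraries (chromosome 11, 33152287 to 33163206, minus strand). All 3 Gpx4-deficient values lay below all wild-type values, and Npm1 fell by 0.47 (SE 0.09, edgeR adjusted p = 0.0246). Per kilobase of transcript it was the highest of the 56 genes in every group, with 688 CPM per kb in stimulated Gpx4-deficient and 952 CPM per kb in stimulated wild-type cells. Of its 75-base stretches 18.1% also occur in transcripts of other genes, and the 7 such genes in the table summed to 5.84 CPM in stimulated Gpx4-deficient and 8.07 CPM in stimulated wild-type cells. Npm1 was past the threshold in 1 of the 6 fits that left out a library, with a difference of -0.52 to -0.38.

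Nop16, a 60S assembly factor, had 97.32, 107.4 and 111.1 CPM in stimulated Gpx4-deficient libraries and 205.1, 170.8 and 175.4 CPM in stimulated wild-type libraries (chromosome 13, 54584185 to 54590090, minus strand). These ranges did not overlap, and Nop16 fell by 0.80 (SE 0.17, edgeR adjusted p = 0.0328), in 2 of the 6 fits without a library too (-0.85 to -0.69). Unstimulated cells had 44.55 ± 4.51 CPM in the Gpx4-deficient and 48.49 ± 7.33 CPM in the wild-type group, whose libraries overlapped. Wdr43 had 347, 276.1 and 305.7 CPM in stimulated Gpx4-deficient libraries and 477.6, 469.7 and 447.3 CPM in stimulated wild-type libraries (chromosome 17, 71615895 to 71659031, plus strand). Its groups were also apart, and it fell by 0.59 (SE 0.13, edgeR adjusted p = 0.0351), in 1 of the 6 fits without a library too (-0.63 to -0.47). The Wdr43 promoter is 1 of the 11 with the E-box shown above, and the gene shares its locus with an antisense transcript and snoRNA genes.

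**Figure D4:**
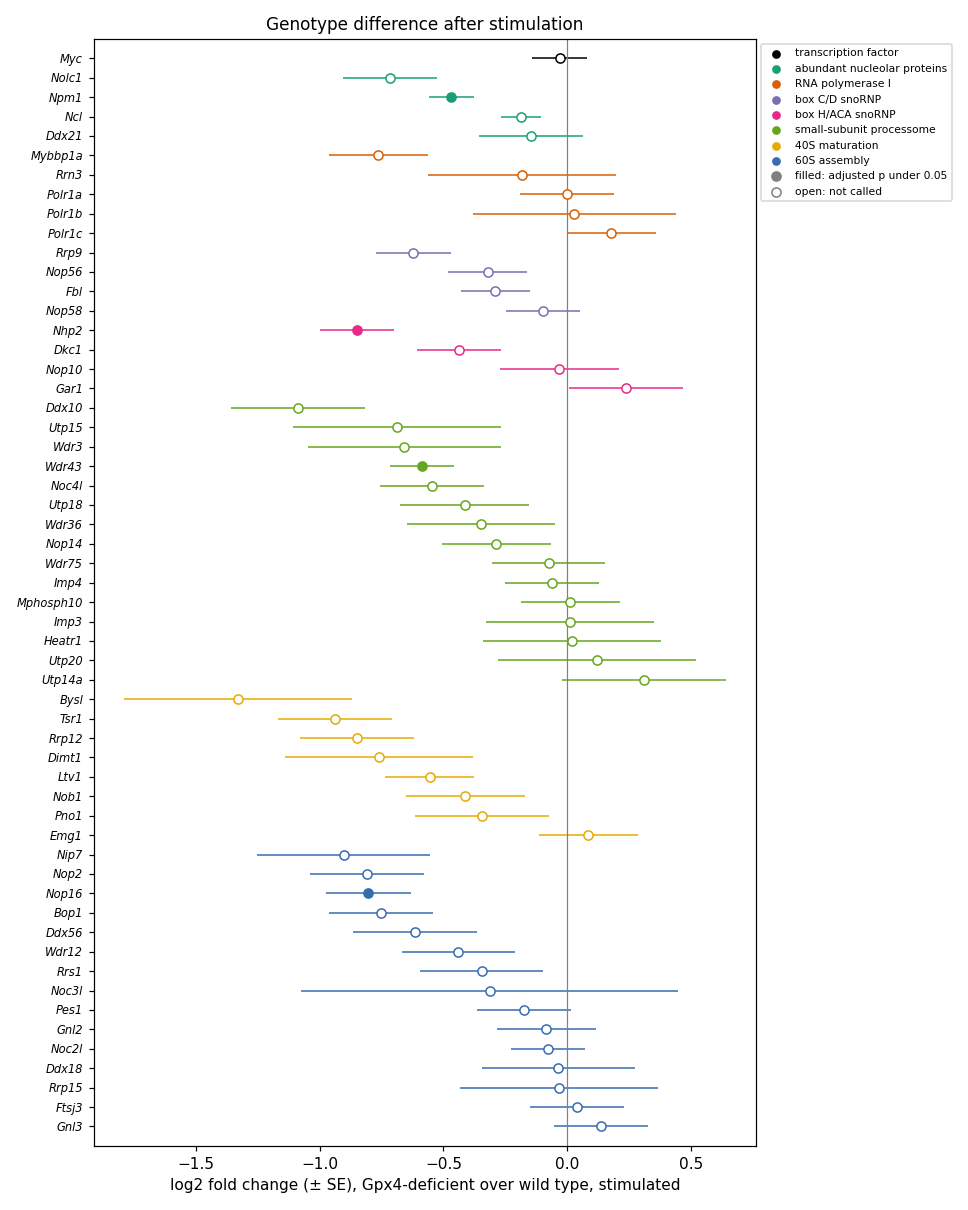
Difference between stimulated Gpx4-deficient and stimulated wild-type cells for each of the 56 genes, as log2 fold change ± SE by role, with filled points for an edgeR adjusted p under 0.05. The 4 filled points are Nhp2, Npm1, Nop16 and Wdr43, and 45 genes lie left of 0.

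By role, the difference was most negative for 40S maturation, with a median of -0.66 and 7 of 8 genes negative, 5 of them without overlap. Tsr1 had 205.8, 115.5 and 157.3 CPM in stimulated Gpx4-deficient cells and 257.1, 289.3 and 370.5 CPM in stimulated wild-type cells (difference -0.94, SE 0.23, edgeR adjusted p = 0.0649). Rrp12 had 98.14, 119 and 149.9 CPM against 212.2, 264.9 and 185.1 CPM in these groups (difference -0.85, adjusted p = 0.0824). Bysl, the mammalian counterpart of a yeast 40S assembly factor, had 69.58, 126 and 22.78 CPM in stimulated Gpx4-deficient and 173.9, 185.8 and 190.2 CPM in stimulated wild-type libraries. The groups of these 3 genes do not overlap, yet none passed the threshold, and for Bysl the Gpx4-deficient libraries differed among themselves by 5.53-fold (difference -1.33, SE 0.46, edgeR adjusted p = 0.163). Emg1, of the same role, differed by 0.09 (SE 0.20).

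The 60S assembly genes had a median of -0.31, with 6 of 15 lower without overlap, namely Bop1, Wdr12, Nop2, Nop16, Nip7 and Ddx56. Nip7 had 72.53, 109.1 and 32.02 CPM in stimulated Gpx4-deficient and 150.9, 123.9 and 125.1 CPM in stimulated wild-type cells (difference -0.90, SE 0.35, edgeR adjusted p = 0.201). Nop2, an rRNA methyltransferase whose promoter also holds the E-box, had 166.5, 289.9 and 302.8 CPM against 459.6, 441.5 and 429.7 CPM in these groups (difference -0.81, adjusted p = 0.102). Its lowest wild-type library was well above its highest Gpx4-deficient one. Noc2l overlapped between the groups, with a difference of -0.08 (SE 0.15), and Gnl3 differed by 0.14 (SE 0.19).

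The median was -0.33 for the nucleolar proteins, of which Ncl, Npm1 and Nolc1 were lower without overlap. Ncl differed by -0.19 (SE 0.08, edgeR adjusted p = 0.246), the smallest of these 3, and Nolc1, with 318.4, 351.5 and 242.8 CPM against 432.7, 517.2 and 550 CPM, by -0.72 (SE 0.19, adjusted p = 0.0847). The box C/D median was -0.31, and Rrp9 had 116.1, 144.3 and 154.4 CPM in stimulated Gpx4-deficient cells against 229.4, 214.4 and 194.5 CPM in stimulated wild-type cells (difference -0.62, SE 0.15, edgeR adjusted p = 0.0603). Nop56 differed by -0.32 (SE 0.16, adjusted p = 0.304) with overlapping libraries, since its replicate 1 of 1149 CPM lay within the wild-type range. Besides Nhp2, the box H/ACA protein Dkc1 was lower without overlap, at 232.8, 249.7 and 242.3 CPM against 350.9, 261.3 and 369.1 CPM (difference -0.44, SE 0.17, edgeR adjusted p = 0.215), while Gar1 differed by 0.24 (SE 0.23).

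For RNA polymerase I the median difference was 0, and Mybbp1a alone was lower without overlap. It had 302.9, 514.1 and 316.1 CPM in stimulated Gpx4-deficient cells and 682.8, 593.8 and 648.4 CPM in stimulated wild-type cells (difference -0.76, SE 0.20, edgeR adjusted p = 0.0754). Polr1a averaged 174.1 ± 36.5 CPM in stimulated Gpx4-deficient and 174.3 ± 24.3 CPM in stimulated wild-type cells (SD, n = 3 each), and Polr1b 166.5 ± 75.5 and 163.3 ± 15.1 CPM. The processome median was -0.29 over 15 genes, with Wdr43 and Ddx10 lower without overlap (Ddx10 difference -1.09, SE 0.27, edgeR adjusted p = 0.0644). These 2 genes are 13.3% of the role, near the shares of all genes (11.9%) and of genes at least as high (14.3%). Utp14a had the highest difference of all members, 0.31 (SE 0.33), with 55.64, 59.56 and 127.7 CPM against 55.68, 79.6 and 60.65 CPM, so that replicate 3 of the Gpx4-deficient group lay far above the other 5. The median difference was -0.41 for the 11 genes with the E-box and -0.19 for the 37 without it. Under RLE scaling the sign of the difference turned for Myc, Polr1a, Nop10, Rrp15 and Ddx18, all close to 0.

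Several other measures moved with genotype in the stimulated libraries. The higher mitochondrial share is given above, and with mitochondrially encoded genes left out the same 4 members were called (Nhp2 at -0.84, Nop16 at -0.79, Wdr43 at -0.57 and Npm1 at -0.45). Leaving these genes out changes only the scaling, so it cannot show what part the mitochondrial share has in the member values. Without the 2 libraries that stood apart, 3 members were called, Nhp2 at -0.70, Nop16 at -0.80 and Npm1 at -0.48. Between 106 and 190 genes that reach 5 CPM elsewhere were at 0 in the stimulated Gpx4-deficient libraries, against 25 to 68 in the stimulated wild-type libraries. The 6 erythroid and platelet markers summed to 33.1 to 53.1 CPM in stimulated Gpx4-deficient and 7.92 to 23.4 CPM in stimulated wild-type cells, where 0 of the 4 tested passed the threshold and Ppbp was at 0 in both. The 4 plasma cell markers summed to 492 to 548 CPM against 362 to 411 CPM, and 1 of 4 was called higher. The 5 monocyte and macrophage markers, of which 0 were called, summed to 56.2 to 78.7 CPM against 22 to 59.2 CPM. The part of the mitochondrial share, of these markers and of the genes at 0 in the member values was not tested.

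The difference between the 2 stimulation responses, Gpx4-deficient minus wild type, was negative for 42 of the 56 genes, with a median of -0.24 against -0.01 for all genes, and the sign turned under RLE scaling for Ddx21, Rrn3 and Gnl2. No member passed the adjusted threshold in edgeR, where 0.202% of all genes did, and DESeq2 and limma-voom also called 0 members. At an unadjusted p under 0.05 there were 10, all negative, namely Npm1, Nolc1, Mybbp1a, Rrp9, Wdr43, Utp18, Ddx10, Rrp12, Tsr1 and Nop16. They are 17.9% of the members, against 8.74% of all genes at that p. Ddx10 had the most negative value, -1.32 (SE 0.38, edgeR adjusted p = 0.314). Tsr1 had -1.03 (SE 0.33, adjusted p = 0.389), Rrp9 -0.68 (SE 0.22, adjusted p = 0.389) and Npm1 -0.41 (SE 0.13, adjusted p = 0.389). Bysl had -0.96 (SE 0.64) and Noc3l -1.19 (SE 1.09), the widest error of all members. Without replicate 2 of the stimulated Gpx4-deficient cells, Mybbp1a at -0.93 (adjusted p = 0.0459) and Ddx10 at -1.75 (adjusted p = 0.0103) passed the threshold. With all 12 libraries, 0 members had a smaller response past the threshold.

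In unstimulated cells the genotypes were closer, and 0 members passed the threshold, against 0.0674% of all genes. The median difference of Gpx4-deficient against wild-type cells was -0.10, and 37 of 56 genes were negative. At an unadjusted p under 0.05 there were 3 by edgeR, Dkc1 (-0.49, SE 0.17), Nhp2 (-0.47, SE 0.15) and Wdr12 (-0.53, SE 0.23), which is 5.36% of the members against 5.8% of all genes. After adjustment DESeq2 and limma-voom called 0. Lower without overlap were 5 genes, Polr1c, Dkc1, Nhp2, Ltv1 and Bop1 (8.93% of members, against 9.89% of all genes), and Emg1 and Ddx18 were higher without overlap (3.57%, against 8.42%). Dkc1 had 143, 95.45 and 125.6 CPM in Gpx4-deficient and 149.8, 183.8 and 178.5 CPM in wild-type libraries, and Polr1c 35.64, 40.32 and 36.23 CPM against 46.91, 42.37 and 44.88 CPM. The gaps between these groups were small beside the spread within them. Ddx18 is uncertain in that 44.2% of its 75-base stretches also occur in transcripts of other genes, though those in the table summed to 0.835 CPM in Gpx4-deficient and 0.755 CPM in wild-type cells. In these cells the 8 neutrophil markers summed to 0.653 to 6.37 CPM in Gpx4-deficient and 32.4 to 99.2 CPM in wild-type libraries, with 0 of 6 tested called and Ly6g at 0 in both, and their part in these values was not tested.

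The spread between libraries differed by group. The median coefficient of variation of the 56 genes was 27.3% in Gpx4-deficient and 10% in wild-type cells with stimulation, and 16.3% and 10.7% without it. Over the genes at least as high as the lowest member it was 28.9%, 14.7%, 17.9% and 12% in the same order. In stimulated Gpx4-deficient cells 14 members differed by more than 2-fold between the highest and the lowest library, led by Noc3l (20.8-fold), Bysl (5.53-fold), Utp15 (3.98-fold) and Heatr1 (3.84-fold), against 0 members in stimulated wild-type cells. Among the unstimulated libraries 6 members did so in Gpx4-deficient cells, led by Rrp15 (4.42-fold), and 1 in wild-type cells, Utp20 (2.42-fold). The low library was not the same for these genes. Replicate 2 was the lowest of the stimulated Gpx4-deficient group for 24 members, replicate 1 for 17 and replicate 3 for 15, and Heatr1 had 97.57, 284.2 and 375.1 CPM while Bysl had its lowest value in replicate 3.

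Other genes of ribosome assembly, from lists of further members, moved in the same direction on stimulation. Of 43 other 60S factors, 15 rose in Gpx4-deficient and 22 in wild-type cells and 0 fell in either, with medians of 0.73 and 1.04. Brix1, a factor of early 60S particles, rose by 1.61 (SE 0.18) and 1.67 (SE 0.18) in that order. Of 32 other processome and 40S factors, 12 rose in Gpx4-deficient and 16 in wild-type cells and 0 fell, with medians of 0.63 and 0.87. The kinase Riok1, which acts late in 40S maturation, rose by 1.80 (SE 0.26) and 1.52 (SE 0.25). Of the 11 snoRNP assembly genes 3 rose in each genotype, and 1, Pih1d1, fell in Gpx4-deficient cells. The 11 other genes of RNA polymerase I transcription behaved otherwise, as 1 rose and 1 fell in each genotype. That is 9.09% each way, near the 7.45% (Gpx4-deficient) and 6.12% (wild-type) of all genes that rose. In the 60S, processome and 40S, and snoRNP lists 27.3% to 51.2% rose. Cd3eap, a polymerase subunit, rose by 1.68 and 1.46, and Ubtf, the factor that opens rRNA genes for transcription, fell by 1.16 in Gpx4-deficient cells (SE 0.16, edgeR adjusted p = 0.000423) and by 0.81 in wild-type cells (SE 0.16, adjusted p = 0.0049).

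In stimulated cells the genotype difference differed between these lists. The other 60S factors had a median of -0.36 with 38 of 43 negative and 0 called, and the other processome and 40S factors a median of -0.36 with 26 of 32 negative and 1 called. That gene was Rrp7a, a processome component, with 94.85, 78.51 and 59.78 CPM in stimulated Gpx4-deficient and 156.9, 129 and 132.5 CPM in stimulated wild-type libraries. The groups do not overlap, and Rrp7a fell by 0.84 (SE 0.19, edgeR adjusted p = 0.043). The ATPase Ruvbl2, which helps assemble snoRNPs, had 129.3, 124.9 and 136.4 CPM against 194.8, 224.4 and 230.4 CPM, also apart, and fell by 0.73 (SE 0.14, edgeR adjusted p = 0.0232). It was the 1 gene called of the 11 in its list, whose median was -0.73. The other genes of RNA polymerase I transcription had a median of -0.09 and 0 called. Of all genes 2.27% were called in stimulated cells, so a count of 0 does not set lists of this size apart. Nor does the 1 gene called of the 32 other processome and 40S factors, which is 3.12%. The 1 gene of the snoRNP assembly list is 9.09% of it. Without stimulation 0 genes of any of these lists were called between the genotypes, against 0.0674% of all genes, which does not set them apart either.

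Of 14 genes that work with or against Myc, 2 rose and 2 fell on stimulation in Gpx4-deficient cells, and 0 rose and 1 fell in wild-type cells. In Gpx4-deficient cells this is 14.3% each way, against 7.45% of all genes higher and 7.83% lower. In wild-type cells 7.14% fell, against 5.41% of all genes. Mxd4, which competes with Myc for Max, fell by 1.81 in Gpx4-deficient cells (SE 0.21, edgeR adjusted p = 0.000103) and by 2.16 in wild-type cells (SE 0.21, adjusted p = 2.67e-05). Mga, another partner of Max, rose by 1.43 in Gpx4-deficient cells (SE 0.35, edgeR adjusted p = 0.0177). Between the genotypes in stimulated cells, 1 gene of this list was called, Mxd3, a further competitor of Myc, at 0.07174, 0.1233 and 0.07533 CPM in Gpx4-deficient libraries and 0.8535, 4.748 and 7.839 CPM in wild-type libraries. It was lower without overlap (edgeR adjusted p = 0.0126), at levels of a few counts a library in Gpx4-deficient cells, so no fold is given. This 1 gene is 7.14% of the list, against 2.27% of all genes called. The median difference of the list was 0.36 in stimulated cells, on the other side of 0 from that of the members.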

How the data were processed

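The deposited table holds RSEM expected counts per gene, which the authors made from the reads. The submitters' processing notes name GRCm38 as the build, and the kit marks strand per the labels, but neither aligner nor strand setting of the counting is given in the sources used here. Of the values in a library 14.8% to 18.1% were not whole, and all were rounded before testing. Each column was matched to its sample by the labels.

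The main test was the robust quasi-likelihood test of edgeR 4.0.16 (R 4.3.3) with TMM scaling and the filterByExpr filter. The 12 libraries were fitted together as 4 group means (8 residual degrees of freedom), and 14827 of 24502 genes were tested, all 56 members among them. The spread of each gene was estimated over all 4 groups together. SE and p-values for genotype in stimulated cells therefore draw also on groups whose libraries differ less. In a fit of the 2 stimulated groups alone, Nhp2, Npm1, Nop16 and Wdr43 each had an edgeR adjusted p of 0.165. Adjusted p-values are Benjamini-Hochberg over all genes tested, with a threshold of 0.05, and standard errors come from the F statistic. CPM are counts scaled to the library total times its TMM factor. Positions and overlaps come from GENCODE, promoters from RefSeq, where no window was matched for Myc, Npm1, Fbl, Wdr36, Rrp12, Bop1, Rrs1 and Gnl2. Per-kilobase levels use the median length of a gene's protein-coding transcripts.

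The members, the other lists and the tests were chosen with earlier results of these data known. Myc, Ncl and the members with the smallest adjusted p in each comparison were named by rule, together with up to 3 genes a list. Alternatives were RLE scaling, no filter on low counts, DESeq2 1.42.0, limma-voom (limma 3.58.1), a replicate block, fits of 2 groups only and leaving out each library. Leaving out mitochondrially encoded genes, or both libraries that stood apart, was added after the data were seen. On simulated counts for the stimulated genotype comparison, the test called 2 of 68 genes changed by 0.5 (log2), 12 of 66 changed by 1 and 47 of 66 changed by 2. Apart from the added change, these counts had the same mean and spread per gene in all groups. The stimulated Gpx4-deficient libraries spread more than the others, so these shares do not tell how often the test finds such changes here.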

Additional observations from a re-analysis of the deposited data

How the results depend on the processing

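All 56 members were tested in every fit, and stimulation raised 37 to 44 members in Gpx4-deficient and 35 to 38 in wild-type cells when any 1 library was left out. The members' median differences kept their sign in every fit, from 1.05 to 1.17 (stimulated against unstimulated in Gpx4-deficient cells), 1.39 to 1.43 (in wild-type cells), -0.36 to -0.25 (genotype, stimulated), -0.07 to -0.02 (genotype, unstimulated) and -0.29 to -0.17 (difference in response) without 1 library. The genotype count in stimulated cells depended most on the setting, with 2 members called without the filter on low counts, 13 by DESeq2, 12 by limma-voom, 0 in a fit of those 2 groups only and 0 to 6 without 1 library. Stimulation in Gpx4-deficient cells called 27 members in a fit of 2 groups only, and the difference in response 0 to 2 without 1 library.

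Libraries with equal replicate numbers had correlations of deviations of -0.0343 to 0.0284, and those with unequal numbers -0.0369 to 0.0438. With 3 libraries a group, such values cannot show whether equal numbers mark paired samples. With the replicate block the stimulated genotype comparison called 2 members and 171 genes, the unstimulated one 3 genes and the difference in response 5 genes, or 0 with the block within genotype. DESeq2 called 183 and 1564 genes for genotype without and with stimulation, 3609 and 2639 for stimulation in Gpx4-deficient and wild-type cells, and 380 for the difference in response. Limma-voom called 21 genes for genotype without stimulation and 0 for the difference in response. Fits of 2 groups only called 22 genes for genotype in stimulated cells and 1022 and 3499 for stimulation in Gpx4-deficient and wild-type cells. Leaving out both libraries that stood apart gave 57 genes for the difference in response. Without 1 library, all-gene counts ran from 3 to 14 and 117 to 658 (genotype without and with stimulation), 1649 to 2521 and 1150 to 1248 (stimulation in Gpx4-deficient and wild-type cells) and 2 to 167 (difference in response).

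Among the genes named by rule, the signs that turned were those of Myc between genotypes (0.01, 0.06 and 0 in unstimulated cells, and in stimulated cells 0.01 by RLE and DESeq2 and -0.06 to 0.08 without 1 library, among them 0.03 and 0.07), Myc in the difference in response (-0.04 to 0.13 without 1 library), Noc2l (-0.16 to 0.07 without 1 library, with 0 in between), Emg1 (-0.15 to 0.33 without 1 library, and -0.11 without both libraries that stood apart) and Noc3l in the difference in response (0.01 without both, against -1.19 with SE 1.09 from all 12 libraries). RLE scaling also turned Polr1a, Nop10, Rrp15 and Ddx18 between genotypes in stimulated cells and Ddx21, Rrn3 and Gnl2 in the difference in response. None of these differences passed the edgeR threshold with all libraries. The cause was not tested.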

Other observations

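Gene groups that adjoin ribosome assembly moved less on stimulation. Of 20 genes of RNA polymerase III transcription, which makes the small rRNA and transfer RNAs, 3 rose and 1 fell in Gpx4-deficient cells and 4 rose and 1 fell in wild-type cells, with median log2 responses of 0.30 and 0.28. Bdp1, an initiation factor of that polymerase, rose by 0.89 in Gpx4-deficient cells (SE 0.18, edgeR adjusted p = 0.00636). Of 13 tested genes of the RNA exosome, which trims rRNA precursors, 2 rose and 1, C1d, fell in Gpx4-deficient cells, and 1 rose and 0 fell in wild-type cells. In Gpx4-deficient cells 15% of the polymerase III list and 15.4% of the exosome list rose, against 7.45% of all genes. In wild-type cells the shares were 20% and 7.69%, against 6.12% of all genes, so the exosome share was near that of all genes. In stimulated cells 0 genes of either list were called between genotypes, against 2.27% of all genes, with medians of -0.05 and -0.18.

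Of 15 tested genes of nucleolar stress and the p53 response, 3 rose and 1 fell on stimulation in Gpx4-deficient cells and 4 rose and 0 fell in wild-type cells. Thus 20% and 26.7% of the list rose, against 7.45% and 6.12% of all genes. Cdkn1a, which encodes an inhibitor of cell cycle kinases, rose by 2.92 in Gpx4-deficient cells (SE 0.28, edgeR adjusted p = 2.92e-05) and by 3.50 in wild-type cells (SE 0.29, adjusted p = 8.19e-06). Sesn2, a stress-induced regulator of growth signalling, rose by 2.14 (SE 0.34) and 2.53 (SE 0.35), and Ccng1, a p53 target, fell by 0.89 in Gpx4-deficient cells (SE 0.18, edgeR adjusted p = 0.00628). Between genotypes 0 genes of this list were called in either state, with medians of -0.07 in stimulated and 0.11 in unstimulated cells. Of all genes 2.27% and 0.0674% were called in these states. At an unadjusted p under 0.05, 6 of the 15 differed in stimulated cells and 0 in unstimulated cells, where 18.3% and 5.8% of all genes did.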
